A study of Mus musculus with 26 samples.

Results

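The 39 protein-coding genes of the mouse Hox clusters were examined, out of 56941 genes in the deposited tables. They were taken by biotype and by symbol (Hox, a cluster letter and a number) and comprise 11 genes of the Hoxa cluster on chromosome 6, 10 of Hoxb on chromosome 11, 9 of Hoxc on chromosome 15 and 9 of Hoxd on chromosome 2. RNA had been sequenced from spheroids of motor neurons, differentiated from the mouse embryonic stem cell line HBG3 (HB9::GFP), which carries a GFP reporter of the motor neuron factor Mnx1. The series compared a mechanical with a biochemical consequence of muscle exercise for these neurons. In all 5 groups the stem cells had been grown on feeder cells, differentiated with retinoic acid and purmorphamine (spelled puromorphamine in the labels), an agonist of hedgehog signalling, given ciliary and glial neurotrophic factors after 5 days, and seeded on fibrin as spheroids at about day 8. The groups were spheroids on a magnetically controlled silicone array, either moved daily for 30 min at 4 Hz (the actuated array, 4 libraries) or never moved (the static array, 4), cultures labelled high intensity (6) or low intensity (6) biochemical treatment, and biochemical controls (6). The design text describes medium taken from an optogenetic muscle monolayer that was stimulated or was not, but under other sample names, so which of these is high and which is low intensity is not stated and the groups go by intensity alone. All cells came from 1 line, whose genotype is labelled as heterozygous blastocysts, and the labels do not say whether the libraries of a group came from separate differentiations. P-values therefore measure the spread between these libraries, which may be technical.

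Hox genes encode homeodomain transcription factors that give cells of the embryo their position along the head-to-tail axis. Their order along each cluster matches their order along the body: low paralog numbers act in the hindbrain and high numbers in the lumbar, sacral and tail regions, and retinoic acid switches on the low-numbered end. Hox proteins bind DNA with Pbx and Meis cofactors and, in the spinal cord, sort motor neurons into columns and pools, with Hoxa5 and Hoxc5 acting in the phrenic neurons, Hoxa6, Hoxc6 and Hoxc8 in brachial limb-innervating neurons, Hoxc9 in thoracic neurons and Hoxc10 and Hoxd10 in lumbar neurons.

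Total counts ranged from 1536 to 13162635 per library, and 5 libraries were set aside as shallow: high-intensity replicates 4 and 5, low-intensity replicate 6, static-array replicate 3 and control replicate 4, in which 78.4% of the counts were rRNA. The 21 libraries with more than 1000000 counts on protein-coding genes were analysed (actuated array 4, static array 3, high intensity 4, low intensity 5, control 5), with totals of 7269276 to 13162635 on the arrays and 1551334 to 3971348 in the biochemical arm. A count of 0 allows up to 0.228 to 0.413 counts per 1000000 (CPM) on the arrays and 0.755 to 1.93 CPM in the biochemical arm, from counting error alone. Array and biochemical libraries differ in depth throughout, so the platform and the depth cannot be told apart. Pan-neuronal markers were high (Tubb3 at 399 ± 132 TPM, transcripts per 1000000, SD over the 21 libraries), the motor neuron factor Mnx1 was low at 4.17 ± 2.01 TPM, and the glial filament gene Gfap stood at 865 ± 321 TPM. These are bulk samples, in which fewer cells of a type and less RNA per cell cannot be told apart.

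The spheroids expressed the rostral and middle parts of all 4 clusters and little of the caudal parts. Of the 39 genes, 24 averaged at least 1 TPM over the 21 libraries. The Hoxb cluster supplied 64.0% of the summed Hox TPM, Hoxa 23.3%, Hoxc 9.81% and Hoxd 2.85%. Hoxb8 was the highest member at 163 ± 41.5 TPM (SD, 21 libraries), followed by Hoxb7 at 96.1 ± 37.8 and Hoxa7 at 59.2 ± 17.8. Hoxb6 (43.2 ± 12.8 TPM), Hoxa5 (34.4 ± 10.3 TPM) and Hoxb9 (30.4 ± 7.89 TPM) completed the 6 highest, which together held 71.4% of the summed Hox TPM.

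**Figure D1:**
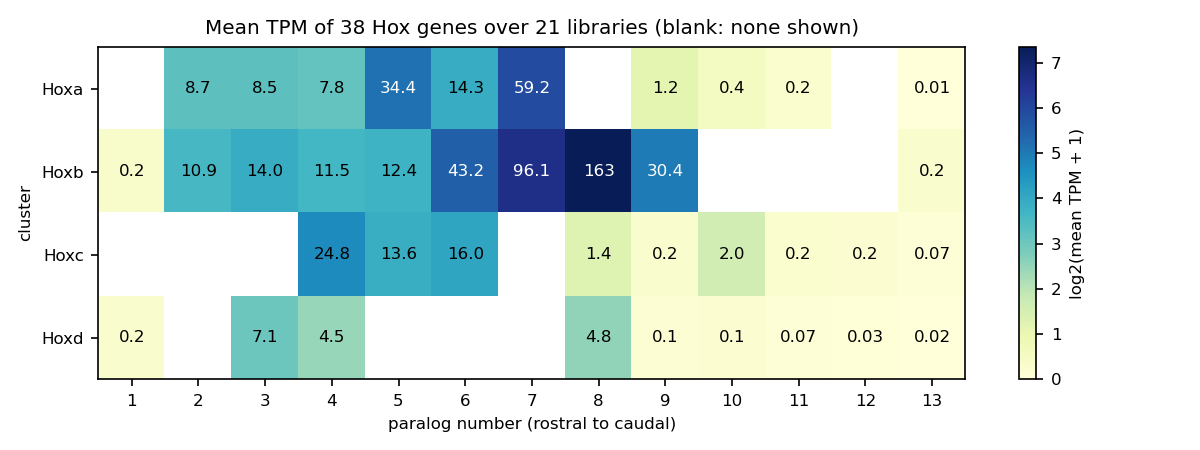
Mean TPM of 38 Hox genes over the 21 analysed libraries, with the cluster on the vertical axis, the paralog number on the horizontal axis and the colour giving log2(mean TPM + 1). The darkest squares are Hoxb7 (96.1) and Hoxb8 (163), and squares right of paralog 9 hold at most 2.03 (Hoxc10).

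The upper part of this order held in most libraries. Hoxb8 exceeded Hoxb7 in 21 of 21 libraries, Hoxb7 exceeded Hoxa7 in 18, Hoxa7 exceeded Hoxb6 in 21, Hoxb6 exceeded Hoxa5 in 19 and Hoxb9 exceeded Hoxc4 (24.8 ± 7.03 TPM) in 19. Hoxa5 and Hoxb9 were closer, with Hoxa5 higher in 16 libraries. Below Hoxc4 the neighbours did not separate: Hoxc6 (15.97 TPM), Hoxa6 (14.3), Hoxb3 (14.03), Hoxc5 (13.6), Hoxb5 (12.4), Hoxb4 (11.5) and Hoxb2 (10.9) were each above the next in only 9 to 15 libraries. The lower expressed members at 1 TPM or more were Hoxa2 (8.65 TPM), Hoxa3 (8.51), Hoxa4 (7.79), Hoxd3 (7.12), Hoxd8 (4.79), Hoxd4 (4.45), Hoxc10 (2.03), Hoxc8 (1.45) and Hoxa9 (1.21).

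In each cluster the largest drop in mean TPM from a gene to its next caudal neighbour was a steep one. In Hoxa this step lay after Hoxa7, where mean TPM went from 59.2 to 1.21 at Hoxa9, a ratio of 48.8. In Hoxb it lay after Hoxb9, which stood 151 times above Hoxb13. In Hoxc it lay after Hoxc6, 11.03 times above Hoxc8, and in Hoxd after Hoxd8, 39.997 times above Hoxd9. The gene on the rostral side was higher in 21 of 21 libraries at each of the 4 steps. The steps were picked from the means of these same libraries, so that count is no separate support. In Hoxc a drop of nearly the same ratio, 10.9, followed Hoxc10, whose mean rests on few libraries. The drop came at a higher paralog number in Hoxb than in the other clusters, with Hoxb9 kept and Hoxa9 (1.21 TPM), Hoxc9 (0.220 TPM) and Hoxd9 (0.120 TPM) low. The members at the rostral tips of Hoxb and Hoxd were low as well, Hoxb1 at 0.247 TPM with a read in 12 libraries and Hoxd1 at 0.224 TPM with a read in 9.

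The promoters on the rostral and caudal sides of the step are shown for Hoxa and Hoxd, the clusters for which RefSeq (GRCm38.p6) gave a promoter for both neighbours. Each window runs from 250 bases before to 50 after the annotated start, 5′ to 3′ on the gene's strand, and capitals mark matches to the motifs named below. Hoxa7 lies at chr6:52218524-52218823 and Hoxa9 at chr6:52227321-52227620, both on the minus strand, and Hoxd8 lies at chr2:74704365-74704664 and Hoxd9 at chr2:74697513-74697812, both on the plus strand.
Hoxa7: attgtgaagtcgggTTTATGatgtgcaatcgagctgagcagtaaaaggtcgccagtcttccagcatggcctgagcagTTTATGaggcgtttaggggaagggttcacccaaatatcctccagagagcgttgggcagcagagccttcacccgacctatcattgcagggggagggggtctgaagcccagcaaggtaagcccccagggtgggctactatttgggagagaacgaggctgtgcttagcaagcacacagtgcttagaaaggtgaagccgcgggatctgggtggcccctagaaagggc
Hoxa9: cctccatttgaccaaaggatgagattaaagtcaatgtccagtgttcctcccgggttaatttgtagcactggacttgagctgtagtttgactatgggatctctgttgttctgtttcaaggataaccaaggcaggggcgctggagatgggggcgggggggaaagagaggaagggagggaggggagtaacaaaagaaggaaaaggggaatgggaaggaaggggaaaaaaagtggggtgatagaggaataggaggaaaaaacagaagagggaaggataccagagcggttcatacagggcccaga
Hoxd8: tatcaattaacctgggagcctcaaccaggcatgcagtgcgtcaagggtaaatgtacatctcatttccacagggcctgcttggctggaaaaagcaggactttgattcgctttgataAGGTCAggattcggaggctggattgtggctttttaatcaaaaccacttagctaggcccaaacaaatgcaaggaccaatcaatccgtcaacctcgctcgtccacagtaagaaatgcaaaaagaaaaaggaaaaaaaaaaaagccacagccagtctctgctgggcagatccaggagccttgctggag
Hoxd9: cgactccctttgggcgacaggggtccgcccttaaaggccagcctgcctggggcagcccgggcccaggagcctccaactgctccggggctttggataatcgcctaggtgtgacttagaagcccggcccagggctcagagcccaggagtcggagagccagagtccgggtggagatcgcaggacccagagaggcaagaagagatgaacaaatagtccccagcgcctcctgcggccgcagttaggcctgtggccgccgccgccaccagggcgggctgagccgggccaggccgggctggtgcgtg
The last 50 bases of the window were found in a GENCODE M21 transcript of the same gene for Hoxa9, Hoxd8 and Hoxd9 and in 0 of 5 for Hoxa7, whose RefSeq start therefore differs from the GENCODE starts.

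Of the 39 members, 22 had a promoter in the table, and 4 motifs were searched on both strands. AGGTCA, the half-site bound by retinoic acid receptors, was found in 7 of these (Hoxa5, Hoxb4, Hoxc4, Hoxd3, Hoxd4, Hoxd8 and Hoxd10) and in 16.3% of all 32851 promoters of the same length. TTTATG, a form of the site bound by Cdx factors, was found in 5 (Hoxa7, Hoxb8, Hoxd3, Hoxd4 and Hoxd11) and in 11.9% of all promoters. TATAAA, the TATA box, was found in 4 members (Hoxa10, Hoxb8, Hoxd4 and Hoxd13) against 13.6%, and TGATTNAT, bound by Hox and Pbx together, in 2 (Hoxa2 and Hoxd11) against 3.22%. In the windows printed above, Hoxa7 carried TTTATG at positions -236 and -173 from the start, Hoxd8 carried AGGTCA at -135, and no match was found in those of Hoxa9 and Hoxd9. On the other strand TTTATG reads CATAAA, which differs from TATAAA only in its first letter, and no printed match overlapped another. The median GC content was 57.7% in the Hox promoters and 52.7% in all promoters. These matches describe letters in a window and not binding, and a window without a match says only that those letters are not in it.

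For comparisons between groups, counts were scaled with the TMM method (trimmed mean of M-values) and are given as CPM. TPM values were lower across genes in the controls: the 39 members summed to 413 ± 79.6 TPM there and to 601 to 712 TPM (group means) elsewhere. On the CPM scale the sum was 839.9 ± 37.6 on the actuated array, 829.8 ± 27.3 on the static array, 779 ± 63.6 at high intensity, 776 ± 36.6 at low intensity and 805 ± 73.3 in the controls (SD). On this scale the ranges of the groups overlapped, so the summed Hox level did not separate them.

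Hoxb8, which acts at the brachial and thoracic levels, read 152, 157, 159.6 and 192 CPM in the 4 actuated-array libraries and 153, 163 and 175 in the 3 static-array libraries. It read 149.8, 162, 107 and 162 CPM at high intensity, 202, 144, 149.5, 138 and 152 at low intensity and 154, 233, 193, 146 and 179 in the controls. The ranges overlapped in every pair of groups, with the lowest value in high-intensity replicate 3 and the highest in control replicate 2. Hoxb7, its neighbour in the cluster, read 115, 111, 120.4 and 129 CPM on the actuated array and 132, 144 and 109 on the static array. In the biochemical arm it read 77.9, 92.02, 51.5 and 71.6 at high intensity, 73.9, 100.4, 107, 102 and 38.4 at low intensity and 87.4, 94.6, 61.9, 99.7 and 82.3 in the controls. All 7 array libraries were above all 14 biochemical libraries for Hoxb7, a split that also separates the libraries by depth. The closest values were 109 on the static array and 107 at low intensity. The share of all genes that split in this way was not computed, so the split is not read as particular to Hoxb7.

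Hoxa7 read 116, 118, 115 and 96.4 CPM on the actuated array, 115, 110.5 and 83.2 on the static array and 87.5, 96.9, 73.6 and 85.1 at high intensity. It read 133, 71.9, 93.7, 86.6 and 102 at low intensity and 93.5, 123, 127, 72.99 and 82.02 in the controls. All pairs of groups overlapped for Hoxa7, the actuated array and high intensity only narrowly, with 96.4 as the lowest value of the former and 96.9 as the highest of the latter. Hoxb6, a middle-cluster gene, read 54.3, 48.2, 52.97 and 56.5 CPM on the actuated array, 44.4, 58.2 and 55.1 on the static array and 57.5, 42.2, 44.97 and 49.04 at high intensity. The values were 60.03, 43.8, 47.3, 51.8 and 47.96 at low intensity and 50.04, 44.5, 47.3, 36.03 and 49.6 in the controls. Hoxb6 was among the steadiest members, with a within-group SD of 0.17 on the log2 CPM scale.

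Hoxa5, a determinant of phrenic motor neurons, read 54.7, 56.3, 53.6 and 59.1 CPM on the actuated array, 49.9, 41.7 and 66.6 on the static array and 51.5, 73.4, 45.4 and 55.6 at high intensity. Values were 43.99, 59.9, 52.8, 58.2 and 50.3 at low intensity and 58.4, 41.7, 57.3, 40.7 and 47.2 in the controls, so all groups overlapped. Hoxb9, the most caudal of the 6, read 66.9, 72.7, 69.97 and 62.04 CPM on the actuated array, 64.8, 68.001 and 64.5 on the static array and 51.2, 68.1, 56.8 and 68.05 at high intensity. For Hoxb9, low intensity gave 55.3, 78.7, 73.9, 68.3 and 56.5 and the controls 88.9, 63.8, 59.2, 90.3 and 77.1. The control libraries held both the highest values of Hoxb9 (replicates 1 and 5) and values inside the range of the other groups.

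**Figure D2:**
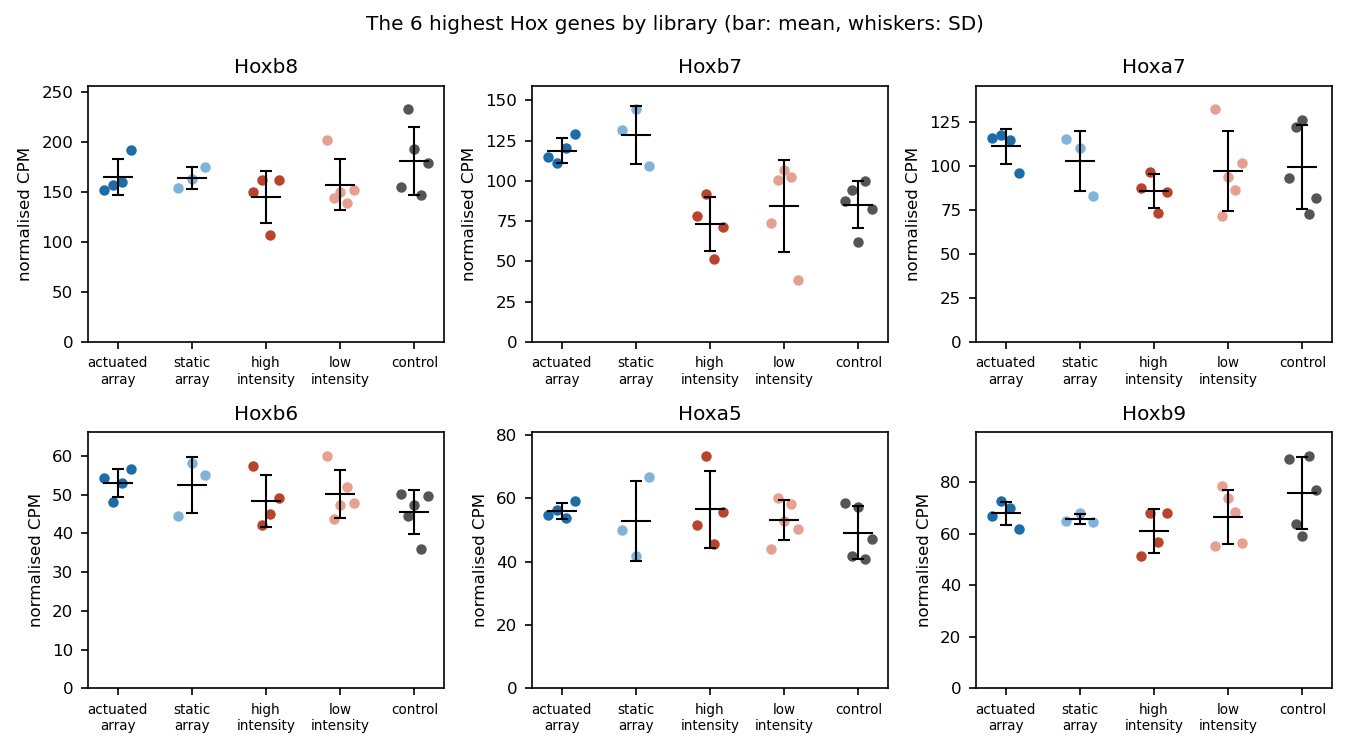
Normalised CPM of the 6 Hox genes with the highest mean TPM, 1 point per analysed library in each of the 5 groups, with the group mean as a bar and the SD as whiskers. The array libraries stand above the biochemical libraries for Hoxb7 (109 at the lowest, against 107 at the highest), and the groups overlap for Hoxb8, Hoxb6, Hoxa5 and Hoxb9.

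For the other members, group means are given as CPM ± SD in the order actuated array, static array, high intensity, low intensity and control (4, 3, 4, 5 and 5 libraries). Among the hindbrain-acting members of paralogs 1 to 3, Hoxa2, which patterns the branchial region, averaged 14.4 ± 2.60, 14.9 ± 1.80, 12.6 ± 3.54, 10.8 ± 3.37 and 12.2 ± 2.66, and Hoxb2, its paralog, 16.97 ± 2.79, 18.5 ± 2.88, 15.01 ± 3.56, 14.9 ± 3.12 and 15.1 ± 9.44. Hoxa3 averaged 16.4 ± 3.79, 15.8 ± 3.22, 23.2 ± 9.73, 12.6 ± 3.28 and 18.5 ± 5.99. The SDs were wide against the differences between these means, with Hoxb2 in the controls resting on 1 library (replicate 3) at 31.9 CPM against 9.83 to 12.1 in the other 4. Hoxb3 averaged 24.1 ± 6.14, 20.3 ± 4.62, 27.4 ± 6.72, 21.4 ± 3.65 and 19.04 ± 7.50 CPM, and Hoxd3 12.9 ± 2.53, 14.8 ± 0.494, 11.9 ± 3.65, 13.4 ± 4.35 and 16.4 ± 5.06. These 5 members had reads in all 21 libraries.

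The cervical members of paralogs 4 and 5 were led, after Hoxa5, by Hoxc4 at 42.4 ± 4.85, 41.9 ± 2.07, 45.1 ± 2.72, 39.4 ± 7.46 and 38.9 ± 2.49 CPM. Hoxc5 averaged 34.6 ± 2.66, 35.4 ± 2.002, 30.8 ± 1.70, 32.3 ± 7.63 and 22.8 ± 3.71 CPM, and Hoxb5 20.7 ± 1.24, 21.1 ± 4.42, 22.9 ± 4.19, 19.2 ± 7.80 and 19.9 ± 2.56. Hoxc4 and Hoxb5 kept within 19.2 to 22.9 CPM (Hoxb5) and 38.9 to 45.1 CPM (Hoxc4) over the group means, whereas Hoxc5 was lowest in the controls. Hoxb4 averaged 21.9 ± 6.30, 21.9 ± 13.996, 30.3 ± 14.9, 25.7 ± 10.96 and 27.6 ± 14.5 CPM, Hoxa4 9.19 ± 1.29, 8.59 ± 0.846, 11.9 ± 4.36, 11.3 ± 6.21 and 9.18 ± 2.23 and Hoxd4 6.33 ± 1.88, 8.03 ± 1.30, 9.70 ± 6.80, 6.26 ± 2.20 and 12.3 ± 9.17. The control mean of Hoxd4 rested on replicate 2, at 28.4 CPM against 5.15 to 9.78 in the other 4 controls.

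Among the remaining members, Hoxc6, a determinant of brachial limb-innervating motor neurons, averaged 19.9 ± 3.06, 15.7 ± 1.62, 20.3 ± 3.49, 21.3 ± 5.79 and 21.1 ± 5.49 CPM. Hoxa6 averaged 9.91 ± 2.15, 8.35 ± 0.898, 8.88 ± 2.83, 7.17 ± 1.86 and 10.7 ± 2.24 CPM. Hoxd8 averaged 8.01 ± 0.998, 7.34 ± 2.08, 6.11 ± 2.75, 6.51 ± 2.53 and 6.42 ± 3.92 CPM and Hoxc8, which specifies caudal brachial motor pools, 1.29 ± 0.707, 1.99 ± 0.342, 4.17 ± 1.80, 3.26 ± 1.92 and 1.38 ± 2.15. The Hoxc8 reads of the controls came from 2 of 5 libraries (17 counts in replicate 1 and 7 in replicate 6), whereas every library of the other groups held a read. Hoxa9 averaged 0.121 ± 0.177, 0.0659 ± 0.0621, 2.98 ± 4.29, 2.22 ± 2.85 and 1.06 ± 1.46 CPM and Hoxc10, a lumbar determinant, 0 (no read), 0.309 ± 0.373, 8.57 ± 14.1, 6.52 ± 5.63 and 0.947 ± 1.59. Their SDs were near or above their means in the groups where they had reads.

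The 15 members under 1 TPM held 0.393% of the summed Hox TPM. Hoxa10 had a read in 10 of the 21 libraries, Hoxc9 in 13, Hoxb1 in 12, Hoxb13 in 11 and Hoxc12 in 10. Hoxd1 and Hoxd9 had reads in 9 libraries each, Hoxc13 in 8, Hoxd10 in 6, Hoxc11 in 5 and Hoxa11 in 4. Hoxd11 and Hoxd13 were found in 3 each, Hoxd12 in 2 and Hoxa13 in 1. No member was at 0 in all 21 libraries, and where a library has no read a level under the limits given above was not detectable.

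Expressed as shares of the summed Hox TPM in each library, paralogs 6 to 8 made up 66.4 ± 4.33% (SD, 21 libraries), paralogs 4 to 5 18.2 ± 2.16%, paralogs 1 to 3 9.21 ± 2.27%, paralog 9 5.48 ± 1.22% and paralogs 10 to 13 0.696 ± 1.27%. The share of paralogs 6 to 8 was 70.03 ± 1.29% on the actuated array and 69.7 ± 3.07% on the static array. It was 60.7 ± 3.29% at high intensity, 65.7 ± 4.17% at low intensity and 66.6 ± 2.82% in the controls. Paralogs 4 to 5 ranged from 20.4 to 22.4% in the high-intensity libraries and from 16.3 to 17.4% in the controls, without overlap. At low intensity they ranged from 16.4 to 21.3%, which overlaps both. Other bands and pairs of groups did not overlap either, such as paralogs 6 to 8 on the actuated array (68.2 to 71.1%) and at high intensity (56.3 to 63.6%). The bands divide a fixed total, so their shares are not independent. These shares are descriptions over a fixed list and carry no test.

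**Figure D3:**
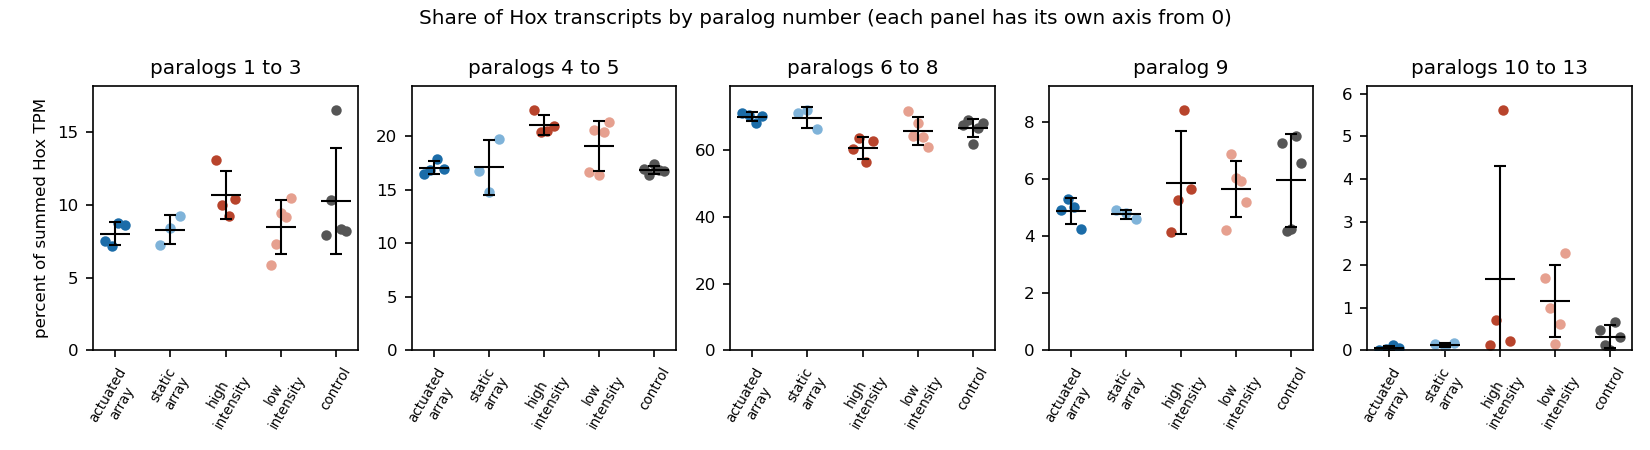
Percent of the summed Hox TPM held by each band of paralog numbers, 1 point per analysed library in each group, with the mean as a bar and the SD as whiskers, each panel on its own axis from 0. Paralogs 6 to 8 hold most of the Hox TPM in all 21 libraries (56.3 to 71.97%), and paralogs 10 to 13 exceed 0.658%, the highest control value, in 5 libraries of the intensity groups.

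No Hox gene passed the test in any of the 6 comparisons (edgeR quasi-likelihood test, adjusted p under 0.05 over 14730 genes). Of the members, 25 passed the filter on low counts and 14 did not. Hoxa9, Hoxa10 and Hoxc10 passed with reads in 15, 10 and 13 of the 21 libraries and mostly through the few where they were high, so counts over the 25 are not a sample of all members. In simulated counts of 14730 genes, 2-fold changes were recovered in 78% of changed genes for the actuated against the static array. The share was 87% for high and 96% for low intensity against control, and 89% for the static array against control. Changed genes were drawn among those of at least median abundance, and the simulated spread depended on abundance alone. The shares therefore do not cover members of low level or wide spread, such as Hoxa9, Hoxa10 and Hoxc10.

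No difference in a Hox gene was detected between the actuated and the static array, and the 6 highest members had narrow intervals. In the comparison of actuated with static array, 0% of all genes and 0 of the 25 members were called, and at an unadjusted p under 0.05 the counts were 56 genes (0.38%) and 0 members. The log2 fold change of Hoxb8 was 0.01 (95% interval -0.32 to 0.34), that of Hoxb7 -0.11 (-0.58 to 0.36) and that of Hoxa7 0.11 (-0.27 to 0.50). For Hoxb6 it was 0.01 (-0.30 to 0.33), for Hoxa5 0.09 (-0.28 to 0.45) and for Hoxb9 0.05 (-0.28 to 0.37). All 6 intervals span 0 and lie inside a 2-fold change in either direction. The median over the 25 members was 0.01, beside -4.24e-04 over all genes. Hoxc10 had counts of 1, 1 and 6 on the static array and 0 in all 4 actuated libraries, and no fold is given. Its p was the smallest among the members (adjusted p = 1, edgeR). It was the 1 member whose groups did not overlap, against 2.23% of all genes that were lower. No member was higher without overlap, against 2.1%. Next was Hoxc6, higher on the actuated array with a log2 fold change of 0.33 (SE 0.25, unadjusted p = 0.197).

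In the high-intensity cultures, 0 of the 25 members and 68 of 14730 genes (0.462%) were called against the controls. At an unadjusted p under 0.05 there were 4 members (Hoxc5, Hoxc10, Hoxb8 and Hoxb9) and 15.9% of all genes. The smallest p was that of Hoxc5, which read 31.5, 31.6, 28.2 and 31.7 CPM at high intensity and 16.97, 25.6, 21.1, 25.3 and 24.9 in the controls. All 4 high-intensity values of Hoxc5 lay above all 5 control values, but the difference did not pass (log2 fold change 0.44, SE 0.18, adjusted p = 0.213, edgeR). Hoxc10 had the next smallest p, with a log2 fold change of 3.27 (SE 1.36, adjusted p = 0.238) that rested on high-intensity replicate 3. Without that library the Hoxc10 value was 0.78 (adjusted p = 0.898). Hoxb8 and Hoxb9, at the caudal end of the expressed part of Hoxb, had log2 fold changes of -0.32 and -0.31 (adjusted p = 0.284 and 0.287, edgeR). Groups did not overlap for 2 members that were higher (Hoxc5 and Hoxc4), against 2.07% of all genes, and for 0 that were lower, against 1.49%.

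At low intensity, 0 members and 88 genes (0.597%) were called against the same controls. At an unadjusted p under 0.05 there were 5 members (among them Hoxc5, Hoxa10 and Hoxc10 with higher values and Hoxd4 with a lower one) and 15.2% of all genes. Hoxc5 again had the smallest p: it read 26.6, 43.8, 30.997, 35.4 and 24.8 CPM, of which the lowest lay inside the control range, for a log2 fold change of 0.50 (SE 0.17, adjusted p = 0.137, edgeR). Hoxa10, a lumbar gene, read 3.60, 2.996, 0, 0.632 and 3.06 CPM at low intensity and 0.288, 0, 0, 0 and 0.580 in the controls, for a log2 fold change of 3.27 (SE 1.40, adjusted p = 0.259). Low-intensity replicates 1, 2 and 5 were above all controls and replicate 3 was at 0. Replicate 4 held 1 read, against 2 in control replicate 6, so these do not separate. Hoxa10 and Hoxc10 passed the filter on low counts mostly through libraries of the intensity groups. Their values in both intensity comparisons are therefore descriptions and not support for a difference. Groups overlapped for all members in this comparison, against 1.28% of all genes higher and 0.971% lower without overlap. Both intensity comparisons and the next share the control libraries, so the values of Hoxc5 in them are not independent.

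Static-array and control spheroids differed in 105 genes (0.713%), of which 0 were Hox genes. At an unadjusted p under 0.05 there were 3 members (Hoxc5, Hoxb7 and Hoxa9) and 12.6% of all genes. Hoxc5 read 36.2, 33.2 and 36.98 CPM on the static array, and all 3 values were above all 5 controls (log2 fold change 0.64, SE 0.18, adjusted p = 0.102, edgeR). Hoxb7 likewise did not overlap, with means of 128 and 85.2 CPM (log2 fold change 0.59, SE 0.22, adjusted p = 0.223). Hoxa9 had counts of 0, 1 and 1 on the static array and 12, 0, 1, 0 and 5 in the controls, which have the lower depth (adjusted p = 0.336). Groups did not overlap for Hoxc5 and Hoxb7, the 2 members that were higher, against 4.52% of all genes, and for 1 member that was lower, against 3.62%.

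Of the 5 group means of Hoxc5, that of the controls was the lowest. On the actuated array, which was not compared with the controls by a test, it read 34.2, 35.96, 31.01 and 37.1 CPM. In the GENCODE M21 annotation 9 members share exon sequence on the same strand with another gene. Hoxc5 shares it with Hoxc10 and Hoxd3 with Hoxd4. Hoxa2, Hoxa3, Hoxa9, Hoxd10 and Hoxd11 share it with genes that are not members. Reads from these exons may have been divided between the genes by the counting. Of the 39 members, 10 overlap an exon of a gene on the opposite strand, among them Hoxb5 (Hoxb5os) and Hoxa7 (Hoxaas3). Whether the counting used the strand is not given in the sources used here, and values of these members are uncertain to that extent.

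High and low intensity differed in 0 genes and 0 members, with 1131 genes (7.68%) and 1 member at an unadjusted p under 0.05. That member was Hoxa3, which read 25.7, 34.5, 11.04 and 21.5 CPM at high and 8.58, 12.7, 11.6, 12.6 and 17.7 at low intensity, overlapping ranges (log2 fold change 0.88, SE 0.30, adjusted p = 0.477, edgeR). No member's groups were free of overlap, against 1.28% of all genes higher and 1.35% lower. Hoxd4 followed at 0.67 (SE 0.47, unadjusted p = 0.161), a value that rested on high-intensity replicate 1 and was 0.05 without it. Whether actuation (against the static array) and high intensity (against control) acted differently was tested as an interaction, which gave 0 genes and 0 members, with 985 genes (6.69%) and 1 member (Hoxc10) at an unadjusted p under 0.05. The Hoxc10 interaction (unadjusted p = 0.0112, adjusted p = 0.663, edgeR) involves the actuated group, in which the gene has no read, so its fitted size is no bound. Hoxc5 had an interaction of -0.47 (SE 0.25, adjusted p = 0.765).

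**Figure D4:**
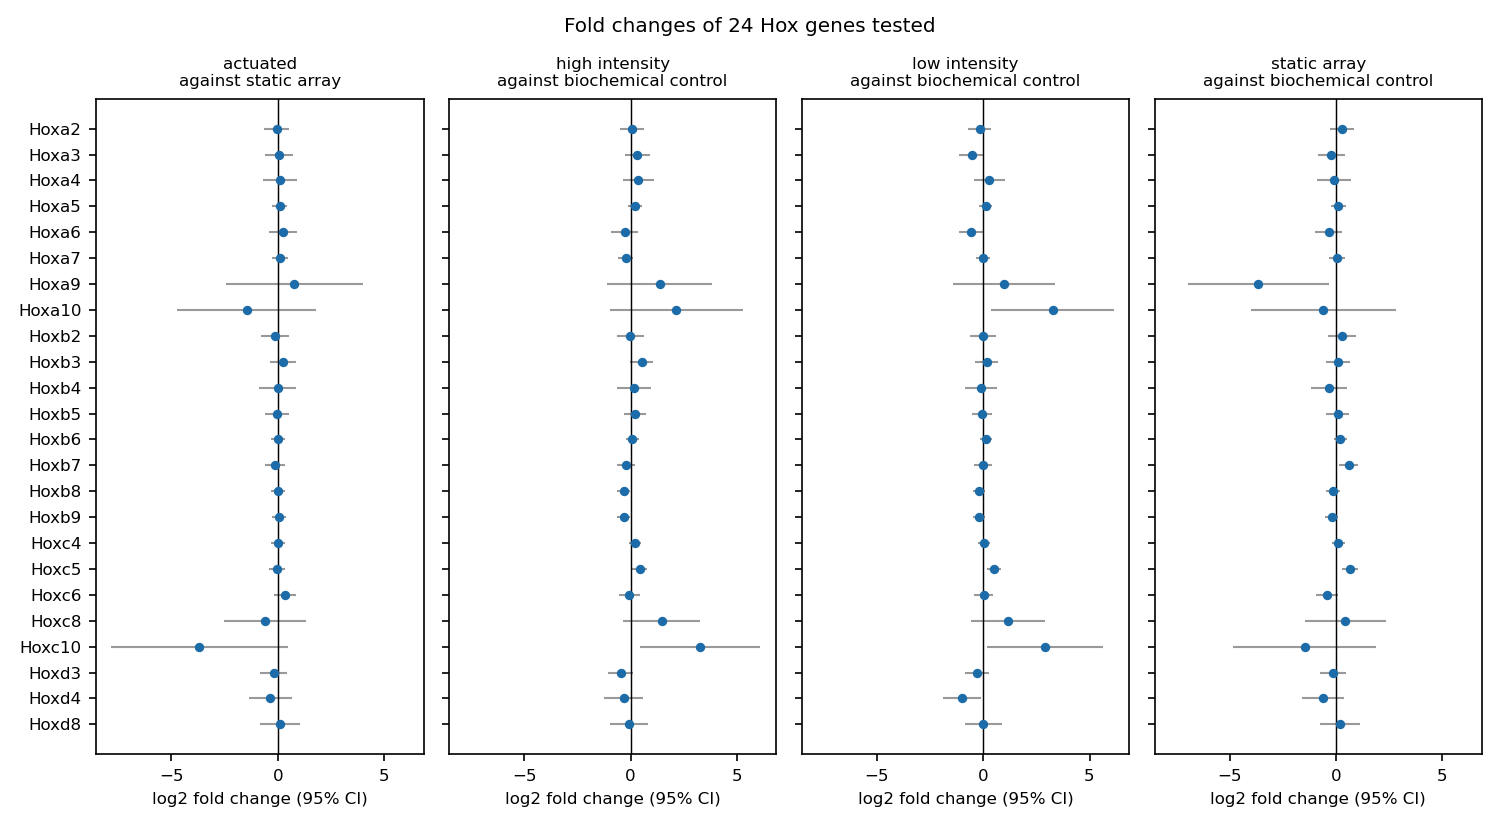
Log2 fold changes (points) with 95% intervals (bars) of 24 of the 25 Hox genes tested, ordered by cluster and paralog number, in 4 comparisons on a common axis. Intervals are narrow for Hoxb8 (actuated array, -0.32 to 0.34) and wide for Hoxa9, Hoxa10 and Hoxc10, and the value of Hoxc10 for the actuated array depends on a prior count because that group has no read.

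Members differed in how steady they were between libraries of a group. On the log2 CPM scale the within-group SD was 0.16 for Hoxc4, 0.17 for Hoxb6, 0.20 for Hoxb9, 0.21 for Hoxc5 and 0.22 for Hoxb8, beside a median of 0.40 over all tested genes and 0.27 over tested genes with a mean log2 CPM of at least 4. It was 0.63 for Hoxb4, 0.66 for Hoxd4 and 0.38 for Hoxb7. It was larger in 4 low members, at 0.95 for Hoxc8, 1.00 for Hoxa10, 1.18 for Hoxa9 and 1.59 for Hoxc10.

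The 15 genes of paralogs 9 to 13 other than Hoxb9, called the caudal members here, were uneven between libraries. Their summed level was 0.131 to 1.55 CPM in the actuated-array libraries and 1.04 to 1.97 CPM in the static-array libraries. It read 10.6, 1.05, 0.385, 7.49 and 5.51 CPM in the controls, 2.27, 10.1, 59.3 and 2.20 at high intensity and 18.5, 11.6, 2.04, 8.22 and 29.2 at low intensity. High-intensity replicate 3 and low-intensity replicates 5, 1 and 2 were above every control library, and the other 5 libraries of the intensity groups were within or below the control range. Hoxc10 alone read 0, 4.86, 29.4 and 0 CPM at high intensity, 10.2, 4.87, 0.681, 2.53 and 14.3 at low intensity and 0, 0.701, 0, 3.74 and 0.290 in the controls. In the highest library, high-intensity replicate 3, counts were 72 for Hoxc10, 23 for Hoxa9, 13 for Hoxc9, 12 for Hoxc11, 10 for Hoxa10 and 10 for Hoxa11. The same library had the lowest Hoxb8 of all 21.

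**Figure D5:**
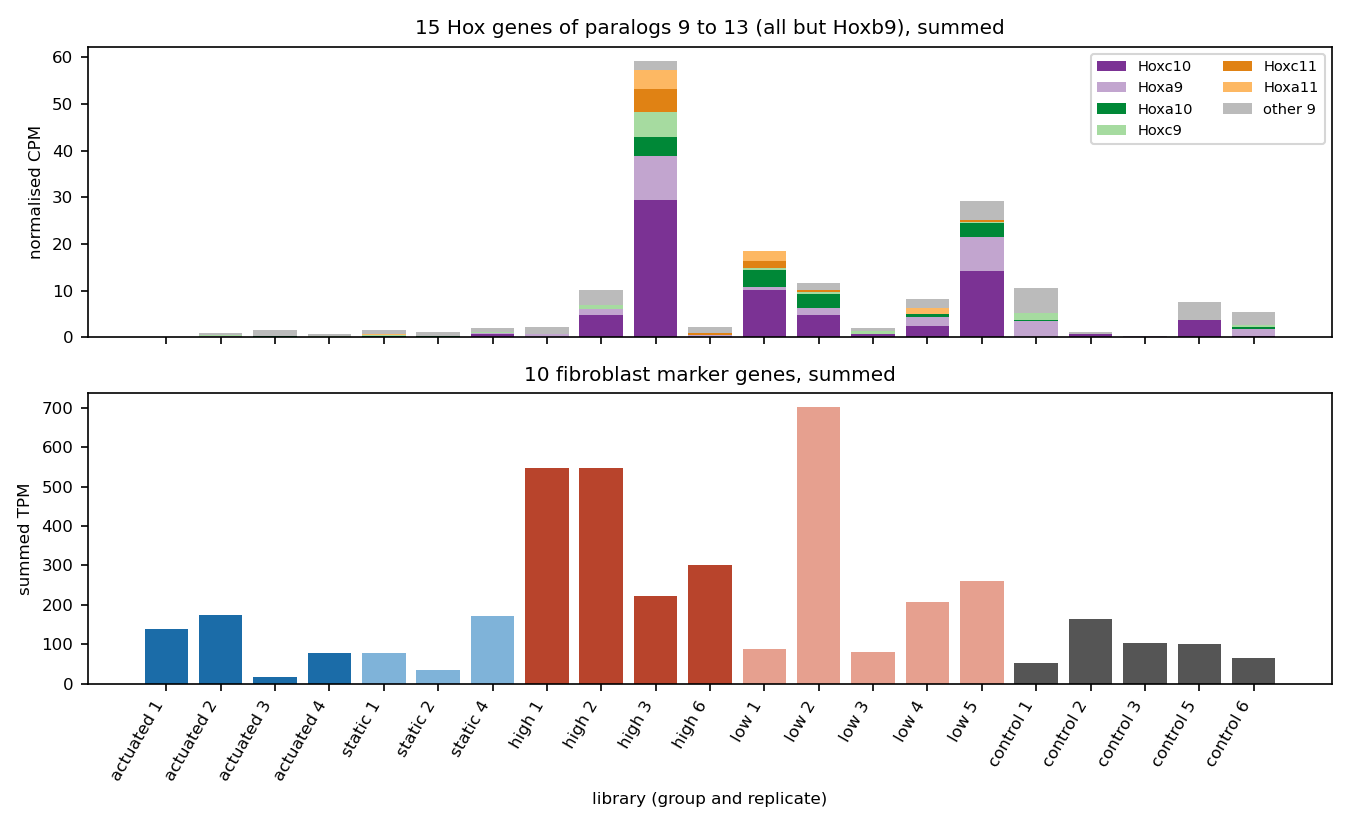
Upper panel, summed normalised CPM of the 15 Hox genes of paralogs 9 to 13 other than Hoxb9 in each of the 21 libraries, stacked by gene. Lower panel, summed TPM of 10 fibroblast marker genes in the same libraries, coloured by group. The highest caudal sum is in high-intensity replicate 3 (59.3 CPM) and the highest fibroblast sum in low-intensity replicate 2 (702 TPM).

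Genes of other cell types also differed between these libraries. The 10 fibroblast markers summed to 222 to 548 TPM at high intensity, 79.6 to 702 at low intensity, 52.4 to 163 in the controls, 35.002 to 172 on the static array and 17.1 to 175 on the actuated array. All 4 high-intensity libraries were above all 5 controls on this scale, on which controls are lower across genes. The 12 skeletal muscle markers summed to 14.4 to 75.1, 8.73 to 56.95, 2.42 to 25.03, 2.72 to 44.4 and 8.16 to 16.3 TPM in the same order. The largest part on average was Des (20.4 ± 20.9 TPM over the 21 libraries), while the muscle-defining Myod1 had a read in 9 libraries, Myog in 3 and Ckm in 3. The library with the highest caudal Hox sum, high-intensity replicate 3, held 10 of 10 fibroblast and 9 of 12 muscle markers at 222 and 44.1 TPM, the lowest fibroblast sum of its group. Low-intensity replicate 1, with a caudal sum of 18.5 CPM, held 87.7 TPM of fibroblast markers, inside the control range. The part of these cells in the caudal Hox reads was not tested.

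Most of the partners and regulators of the Hox genes were expressed. Of the 9 Pbx, Meis and Pknox cofactors, 9 were tested and 0 were called in any comparison, with Pbx3 at 72.4 ± 20.1 TPM, Meis2 at 64.98 ± 20.5 and Meis1 at 38.1 ± 9.63. Of 17 genes of upstream signalling, 13 were tested and 0 called. These were led by genes of retinoic acid handling: the degrading enzyme Cyp26a1 (203 ± 91.7 TPM), the binding proteins Crabp2 (116 ± 37.1) and Crabp1 (40.3 ± 15.5) and the receptor Rarb (35.1 ± 10.6). Cdx1, Cdx2 and Cdx4, which activate middle and caudal Hox genes in the embryo, had reads in 3, 3 and 2 of 21 libraries, and the signalling factor Fgf8 had reads in 1.

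All 27 genes of the Polycomb and Trithorax groups, which hold Hox genes silent or active, were tested, led by Rbbp7 (97.3 ± 28.9 TPM), Bmi1 (88.5 ± 24.7), Ezh2 (63.3 ± 22.03) and Rnf2 (31.6 ± 12.1). In the static array against the controls, 1 of the 27 fell and 0 rose, against 0.414% of all genes that fell. This was Kmt2a, a Trithorax methyltransferase that keeps Hox genes active, at 176, 166 and 148 CPM on the static array and 263, 185, 255, 229 and 231 in the controls (log2 fold change -0.51, SE 0.11, edgeR adjusted p = 0.0348). All 3 static values were below all 5 controls. In the other 5 comparisons 0 of the 27 were called, and Kmt2a read 198, 195, 176 and 179 CPM on the actuated array.

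Among 17 noncoding genes of the clusters, 4 were tested and 0 called. Hoxb5os (38.7 ± 16.3 TPM) and Hotairm1 (32.9 ± 16.2 TPM), antisense transcripts of Hoxb and Hoxa, were the highest, followed by Hoxaas3 (7.02 ± 4.38) and Hoxd3os1 (2.40 ± 2.24). Hotair and Hottip, transcribed from the caudal parts of Hoxc and Hoxa, had reads in 2 libraries each. Of 15 genes linked to motor columns, 15 were tested and 0 called, with Foxp1, a partner of Hox proteins in limb-innervating neurons, at 57.8 ± 19.4 TPM, Ret at 26.2 ± 9.08, Etv5 at 14.7 ± 8.21 and Foxp2 at 13.96 ± 7.55. Aldh1a2, an enzyme of retinoic acid synthesis used by limb-level motor neurons, stood at 1.15 ± 0.965 TPM.

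Genes that mark the brain in front of the Hox domain were low. The 15 rostral brain genes summed to 1.49 to 10.1 TPM in the controls and to 4.07 to 20.1 TPM on the actuated array, most of it Emx2 (3.62 ± 4.24 TPM) and Lhx5 (1.52 ± 0.736), with Lhx2 at 0.625 ± 1.27 and Six3 at 0.520 ± 0.455. Otx2 had a read in 4 of 21 libraries. Of these 15 genes, 3 were tested and 0 called. Other homeobox genes of the same class were led by Gbx2 (7.86 ± 5.03 TPM), En1 (5.35 ± 2.31), En2 (1.02 ± 0.868) and Evx1 (0.760 ± 0.780), with 3 of 11 tested and 0 called. Among the cell type markers, 1 of 9 neural progenitor genes rose at low intensity against the controls, where 0.441% of all genes rose. This was Nes (log2 fold change 1.43, SE 0.33, edgeR adjusted p = 0.0443). It went against most of its list, in which 3 of 9 estimates were above 0. The median log2 fold change of the list was -0.21, beside -8.27e-03 over all genes. Of 8 motor neuron genes tested, 1 fell on the static array against the controls, where 0.414% of all genes fell (Slc5a7, the choline transporter, log2 fold change -1.88, SE 0.31, adjusted p = 0.00392, edgeR). None of the neuron, glia, fibroblast, skeletal muscle or pluripotent markers was called in the 6 comparisons. In the static array against the controls, where Hoxc5, Hoxb7, Kmt2a and Slc5a7 are described above, the estimates of 8 of 8 glial genes were above 0, 7 of them at an unadjusted p under 0.05 against 12.6% of all genes in either direction. Their median log2 fold change was 1.01, beside -3.03e-03 over all genes, and Sox10, a factor of oligodendrocyte and Schwann cell lineages, had 1.86 (SE 0.46, adjusted p = 0.0579, edgeR). At high intensity against the controls, the estimates of 8 of 8 neuron genes were below 0 (4 at an unadjusted p under 0.05, against 15.9% of all genes) and those of 9 of 9 tested fibroblast genes were above 0 (5 at an unadjusted p under 0.05). At low intensity against the controls, estimates were above 0 for 1 of 8 neuron, 8 of 9 fibroblast and 8 of 8 glial genes. In these lists 1, 3 and 1 genes had an unadjusted p under 0.05 (edgeR), against 15.2% of all genes. Of all genes, 49.1% were above 0 at low intensity, 50.3% at high intensity and 49.7% on the static array, each against the controls. The part of these cell types in the Hox values was not tested.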

How the data were processed

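Deposited by the authors were estimated counts (whole numbers, with totals that differ between libraries) and TPM values, for 56941 Ensembl mouse genes in 26 libraries. Per the labels' protocols, 4 ng of RNA was used per library, except for 8 samples of lowest concentration that entered at full volume, and reads were paired, of 50 bases. No molecular identifiers or batches are mentioned, so the limits given for counts of 0 cover counting error only, whereas intervals of fold changes come from the fit and include the spread between libraries. The submitters' processing notes list STAR, Salmon, BWA 0.7.12-r1039 and bedtools 2.25.0 and the builds mm10, GRCm39 and hg19 without a role; for the counts, build and strand setting were not given in the sources used here.

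Counts were fitted with edgeR 4.0.16 (R 4.3.3): filterByExpr (14730 genes kept), TMM scaling, 1 coefficient per group over the 21 libraries with over 1000000 protein-coding counts, the quasi-likelihood F-test, and Benjamini-Hochberg adjustment per comparison at 0.05. The 5 libraries below that depth held 1151 to 457670 protein-coding counts and were left out. Levels of different genes were compared in TPM. The 57 within-group pairs of libraries differed by 4.74 to 308 chi-square units per degree of freedom, so none was a repeat deposit. The fit was tested on simulated counts. Alternatives were DESeq2 1.42.0, limma 3.58.1 (voom, and log2 TPM with a pseudocount of 1 or 0.1), other filters and scalings, a replicate block and leaving out each library.

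Members, gene lists and paralog bands were chosen with earlier results of these data known. Apart from genes not reported here, the text names every Hox gene of at least 1 TPM, gives the 6 highest in each library, names the 2 smallest p-values where no member was called, and from each companion list any gene called and up to 4 of the highest level.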

Additional observations from a re-analysis of the deposited data

Results flagged for a closer look

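Of 95 combinations of a gene and a group of 4 or 5 libraries, 12 held 1 library standing apart by Dixon's criterion. Its nominal rate of about 5% is for normally distributed values, which CPM near 0 are not. Whether the CPM of higher members are was not tested, so no excess was judged from the 12 flags. Of these, 4 concern the caudal genes: Hoxc10 in high-intensity replicate 3 (29.4 CPM, against 0 to 4.86 in the rest of the group), Hoxa9 in the same library (9.40 CPM, against 0.551 to 1.22), Hoxa9 in low-intensity replicate 5 (7.14 CPM, against 0 to 1.90) and Hoxc10 in control replicate 5 (3.74 CPM, against 0 to 0.701). High-intensity replicate 3 was also low in Hoxc5 (28.2 CPM, against 31.5 to 31.7).

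Other members stood apart in a library each. Hoxb8 was high in low-intensity replicate 1 (202 CPM, against 138 to 152), Hoxb4 in high-intensity replicate 1 (52.5 CPM, against 20.4 to 25.1), Hoxb2 in control replicate 3 (31.9 CPM, against 9.83 to 12.1) and Hoxd4 in control replicate 2 (28.4 CPM, against 5.15 to 9.78). Hoxa7 was low in actuated-array replicate 4 (96.4 CPM, against 115 to 118). Hoxb5 was high in actuated-array replicate 3 (22.5 CPM, against 19.8 to 20.3) and low in high-intensity replicate 2 (16.6 CPM, against 24.5 to 25.6).

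Caudal Hox reads were also found in libraries left out for depth. The 15 genes of paralogs 9 to 13 other than Hoxb9 summed to 92.9 counts per 1000000 of all counts in static-array replicate 3 (57 counts over 13 of the 15 genes) and to 32.3 in high-intensity replicate 5 (16 counts over 8 genes), against 0.341 to 9.81 in the 5 analysed controls. Both libraries had counts on more genes than the deeper libraries of their groups: 31731 genes from 613344 counts in static-array replicate 3, against 20374 to 23420 genes, and 24236 genes from 495044 counts in high-intensity replicate 5, against 20184 to 22186 genes. The part of background reads in the caudal sums was not tested. Static-array replicate 3 also held rostral brain genes at 105 TPM, against 3.52 to 5.88 TPM in the other 3 static libraries.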

How the results depend on the processing

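The log2 fold changes of the 2 members with the smallest p in each comparison reversed direction in 0 of 393 alternative values. These members were picked by p in the same libraries that the alternatives use, so that count is no separate support. Other fold changes given above were not followed in this way, among them those of Hoxb8 and Hoxb9 at high intensity against control. In that comparison 24 of the 25 members were above 0 on log2(TPM + 1), beside 90.8% of all genes. In its main fit 14 of the 25 were, beside 50.3% of all genes. The Hox median between actuated and static array, 0.01 on the log2 scale, changed sign with all 26 libraries (-0.0012), without the filter on low counts (-0.0081) and without actuated-array replicate 4 (-0.02) or static-array replicate 1 (-0.08) or 2 (-0.01). The count of 0 Hox genes called held in all 6 comparisons with all 26 libraries, DESeq2 size factors, DESeq2's Wald test, limma voom, a filter of 1 CPM in 4 libraries, the compared groups alone, removal of mitochondrial and rRNA genes, and leaving out each library in turn (lowest 0, highest 0). With no filter on low counts, 1 Hox gene each was called in high intensity against control (Hoxc10, log2 fold change 3.29), low intensity against control (Hoxc10, 2.92), static array against control (Hoxb7, 0.68) and the interaction (Hoxc10, -7.00). On log2(TPM + 1), limma called 5 Hox genes at high intensity, 10 at low intensity and 3 on the static array against the controls, and on log2(TPM + 0.1) 5, 11 and 3, all higher. That scale moves the median of all genes by 0.53, 0.64 and 0.50 at a pseudocount of 1. It put 90.8, 91.4 and 86.0% of all genes above 0 in these comparisons. Centred on each library's median, an alternative chosen after seeing the data, it called 1 (Hoxc5, low intensity against control, 0.80, adjusted p = 0.0411) and 0 in the other comparisons. Hoxc5 in that comparison had adjusted p between 9.34e-04 and 1 over the alternatives.

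The replicate block called 0 Hox genes in each comparison. Where other settings called Hox genes, the share of all genes called is not given here. Those counts are therefore not read as particular to Hox genes. Deviations of same-numbered libraries of different groups correlated between -0.23 and 0.19 over 31 pairs, 3 of them over 0.1, so the numbers were not taken to pair the libraries. Counted in reads rather than TPM, which favours long transcripts, paralogs 4 to 5 held 23.7%, paralogs 6 to 8 55.3% and paralog 9 8.79% of the Hox signal. Leaving out 1 library gave 8.84 to 9.38% for paralogs 1 to 3, 18.02 to 18.4% for 4 to 5, 66.1 to 66.9% for 6 to 8, 5.34 to 5.55% for 9 and 0.450 to 0.731% for 10 to 13, the lowest of the last without high-intensity replicate 3. Over 393 single-gene values, 379 kept direction and call and 14 became called. Depth limits the caudal members, for which 1 read in the shallowest analysed libraries is a sizeable level.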
